A study of Homo sapiens with 15 samples.

Results

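Integrins and laminins were followed in IMR32 cells, an established human neuroblastoma line transfected with an MSX1 gene that doxycycline induces. MSX1 encodes a homeodomain transcription factor. The genes were chosen by symbol, with earlier results of these data known. They were those whose platform annotation gave 1 symbol of the ITGA, ITGB, LAMA, LAMB or LAMC series. The probe set with the highest mean signal over the 15 arrays stood for each gene. This gave 35 genes of 19775 named on the array, 25 integrins and 10 laminins, read by 95 probe sets in all. The arrays formed 5 groups of 3, namely cells at t = 0, cells with doxycycline at t = 8, t = 24 and t = 48 (induced), and cells grown alike without doxycycline to t = 48 (control). The labels give no unit of time. All 5 groups carried the construct, the labels do not say whether the line was 1 clone, and doxycycline was never given to cells lacking it, so effects of doxycycline and of MSX1 cannot be told apart. Whether replicates were separate cultures is not given in the labels, and the p-values then reflect only how far these samples lie apart, which may be technical.

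Integrins are receptors of 1 alpha and 1 beta subunit that bind matrix proteins outside the cell and couple to the actin cytoskeleton inside it. The subunits pair selectively: the beta subunit encoded by ITGB1 joins many alpha subunits, that encoded by ITGA6 forms laminin receptors with ITGB1 or ITGB4, and those encoded by ITGB5 and ITGB8 pair with ITGAV to bind proteins with an arginine-glycine-aspartate motif. Laminins are trimers of an alpha, a beta and a gamma chain that build the basement membrane. In neural crest derivatives, from which neuroblastoma arises, integrins and laminins are known for their part in migration and axon growth.

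The promoters of the 4 members that were higher in induced than in control cells at t = 48 are shown because these members changed in the matched comparison. Each is the RefSeq window of 300 bases (GRCh38.p14) from 250 bases before to 50 after the start site. Where RefSeq lists several, as for ITGA6 and ITGB5, the most downstream is shown. The windows are chr2:172427336-172427635 on the plus strand for ITGA6 and, on the minus strand, chr3:124887316-124887615 for ITGB5, chr7:108003112-108003411 for LAMB1 and chr3:49133001-49133300 for LAMB2. Capitals mark GGGCGG, the GC box bound by Sp-family factors, and TAAT, the core bound by many homeodomains, on either strand.
ITGA6: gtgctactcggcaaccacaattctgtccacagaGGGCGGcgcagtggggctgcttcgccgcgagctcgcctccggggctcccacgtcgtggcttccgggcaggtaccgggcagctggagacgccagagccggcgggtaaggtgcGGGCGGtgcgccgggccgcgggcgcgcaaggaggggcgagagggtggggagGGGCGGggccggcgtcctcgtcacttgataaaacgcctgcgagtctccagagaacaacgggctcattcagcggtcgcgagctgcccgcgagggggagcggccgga
ITGB5: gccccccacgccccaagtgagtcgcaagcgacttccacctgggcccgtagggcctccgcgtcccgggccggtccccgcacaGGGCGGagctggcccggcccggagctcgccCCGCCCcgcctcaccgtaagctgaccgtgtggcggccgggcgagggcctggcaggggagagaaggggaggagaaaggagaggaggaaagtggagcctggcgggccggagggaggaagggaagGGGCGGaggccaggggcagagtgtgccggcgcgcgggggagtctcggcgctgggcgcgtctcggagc
LAMB1: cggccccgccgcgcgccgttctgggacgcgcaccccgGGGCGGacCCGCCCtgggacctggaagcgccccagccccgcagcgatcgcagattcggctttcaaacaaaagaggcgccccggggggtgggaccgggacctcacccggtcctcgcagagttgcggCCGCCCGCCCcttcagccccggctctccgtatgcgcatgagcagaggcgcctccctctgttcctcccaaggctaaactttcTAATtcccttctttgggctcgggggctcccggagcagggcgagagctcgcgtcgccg
LAMB2: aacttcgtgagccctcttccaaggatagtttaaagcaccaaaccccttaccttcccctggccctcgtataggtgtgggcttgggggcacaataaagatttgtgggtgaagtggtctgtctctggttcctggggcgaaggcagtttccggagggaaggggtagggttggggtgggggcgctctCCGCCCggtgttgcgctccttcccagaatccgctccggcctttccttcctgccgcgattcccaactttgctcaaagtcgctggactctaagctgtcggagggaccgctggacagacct
The windows shown of ITGA6 and ITGB5 hold 3 GC boxes each, that of LAMB1 4 and that of LAMB2 1, and among them the TAAT core appears once, in LAMB1. The windows of ITGB5 that are not shown hold 2 TAAT cores and 2 GC boxes each. That of ITGA6 holds 0 TAAT cores and 1 GC box. RefSeq windows were found for 24 of the 35 genes, 31 windows in all. Of the 12 windows of members that passed a comparison of 2 groups, 10 held GGGCGG on either strand, against 45.0 percent of all 35116 promoters. These were 7 of 9 genes, with 3 of the 12 windows from ITGB5 and 2 from ITGA6. GGGCGG was also in 3 of the 9 windows of other tested members and 5 of the 10 of untested members. LAMA5, which passed only the F-test over the induced time course, was counted among the other tested members, and its window held GGGCGG. The GC content of those 12 windows had a median of 65.5 percent, against 69.3 percent in other tested members, 54.5 percent in untested members and 58.7 percent over all promoters. TAAT was in 5 of the 12, against 50.2 percent of all promoters, and the longer TAATTG, which contains it and which Msx proteins are known to prefer, was in 0 of the 12, against 7.38 percent. CACGTG, a palindromic E-box, was in 1 of the 12, the other window of ITGA6, against 7.26 percent. TGGGAA, the core bound by the Notch effector RBPJ, was in 1 of the 12, that of LAMB2, against 24.0 percent. A match is a description of letters in these windows only.

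The deposited values are MAS5 signals, scaled by array to the same trimmed mean. Signals below the array median (18.1 to 22.6) were taken as too low to follow, and 21 of the 35 genes, 15 integrins and 6 laminins, reached it on at least 3 arrays and were tested. None of the 21 reached it in 1 group alone, although ITGA8 reached it on 8 arrays and ITGB5 on 12. The other 14 lay between 0.4 and 32.1 on all arrays: the leukocyte integrin genes ITGAD, ITGAL, ITGAM, ITGAX, ITGB2 and ITGB7, the collagen receptor genes ITGA2 and ITGA11, the laminin receptor genes ITGA3 and ITGA7, and the laminin genes LAMA2, LAMA4, LAMB3 and LAMB4. Of these, 8 never reached the array median.

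Fold changes below are on the scale of log2(signal + 5.16), which understates changes of low signals. A gene was called changed at an adjusted p under 0.05 in limma over 12868 genes, and only such genes are said to have risen or fallen. MSX1 itself, which checks the labels, averaged 83.2 ± 14.7 in induced and 50.7 ± 4.52 in control cells at t = 48 (SD, n = 3; log2 fold change 0.65, adjusted p = 0.0163). The signal at t = 0 was 111 ± 13.6, above both: control cells fell from it by 1.05 on the log2 scale (adjusted p = 0.005), and induced cells at t = 48 did not exceed it (-0.40, adjusted p = 0.0775). Against t = 0, MSX1 rose at t = 24 (0.55, adjusted p = 0.0299) and gave 0.51 at t = 8, which did not pass (adjusted p = 0.128). Whether this probe set reads the introduced gene was not tested. Of 11 adrenergic neuroblastoma markers on the array, 10 were tested. At t = 48, 4 of these were higher and 1 lower in induced than control samples, or 50 percent called against 8.6 percent of all genes. Only 4 of the 10 had differences above 0, and the median was -0.03. TH, which encodes the first enzyme of catecholamine synthesis, read at most 11.9. Summed markers of epithelial cells read at most 34.3, those of Schwann cells read at most 72.0, those of endothelial cells at most 89.9 and those of blood at most 146.6, and 0 of 6, 1 of 4, 2 of 6 and 2 of 7 of them reached the array median often enough to be tested. Some fibroblast markers differed between groups, beside the matrix results below. Their sum was 1291.7 to 1432.5 at t = 0, 1722 to 1904 at t = 8, 2547 to 2598 at t = 24 and 2118 to 2178 at t = 48 in induced cells, and 1578.5 to 1688.6 in control cells. Of these 10 markers 9 were tested. COL1A1, COL3A1, LUM and PDGFRA rose by t = 24 against t = 0. Against control at t = 48, COL3A1, LUM and PDGFRA were higher and 0 were lower, while 5 of the 9 had differences below 0 and the median was -0.04. DCN read at most 26.6 and COL1A2 at most 25.1, and their part in the results was not tested. In such bulk samples, fewer cells of a type and less RNA per cell cannot be told apart. Hybridisation controls were weak on replicate 1 of induced t = 24 and replicate 3 of induced t = 48, with bioC at 87.6 and 98.9 against 346 to 430 elsewhere. The 18S rRNA control was higher in induced (150 to 173) than in control cells (76.7 to 94.9) at t = 48, and at t = 0 it read 86.2, 148.5 and, on replicate 3, 646.5, the highest of all arrays. At t = 48 the ratio of 3' to 5' ACTB probe sets ran from 1.27 to 1.52 against 1.22 to 1.31, and their part in the results was not tested.

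At t = 48, where induced and control cells were both measured, the question was what differed at a matched time. ITGA6 and ITGB5 were more than 2-fold higher in induced cells, and the laminin beta chain genes LAMB1 and LAMB2 were higher by less. These were 4 of the 21 tested members, all higher, where 8.6 percent of all genes tested were called, 5.31 percent higher and 3.29 percent lower. Without the pair of weak arrays the count was again 4, the same genes. The median log2 fold change was 0.20 over the 21 members and -0.01 over all 12868 genes. By family, 2 of 15 integrins and 2 of 6 laminins were called.

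ITGA6 encodes the alpha subunit of laminin receptors. Its signals were 168.6, 160.8 and 210.9 in induced and 48.3, 50.9 and 57.3 in control cells at t = 48, against 28.5, 40.1 and 17.1 at t = 0. The lowest induced array lay well above the highest control array, and every control array lay above every array at t = 0. The log2 fold change of induced over control was 1.69 (SE 0.21, adjusted p = 0.00038), and the dimmer of its 2 probe sets gave 1.35 (adjusted p = 0.00412 over all probe sets). Between t = 0 and t = 48 control cells gave 0.82, which did not pass (adjusted p = 0.123) but did without t = 0 replicate 2 (1.06, adjusted p = 0.04).

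ITGB5 encodes a beta subunit that pairs with ITGAV. It read 78.4, 72.9 and 78.3 in induced and 23.6, 22.6 and 17.1 in control cells at t = 48, and 9.0, 18.3 and 30.5 at t = 0. The induced arrays lay far apart from the control arrays, and the arrays at t = 0 spanned the control range. The difference of induced from control cells was 1.65 (SE 0.25, adjusted p = 0.00144), and the other probe sets that reached the filter gave 1.90 (adjusted p = 0.0176) and 1.39 (adjusted p = 0.0379). Signals of ITGB5 near the array median make the size of this change depend on the offset: an offset of 20 gave 1.23.

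**Figure D1:**
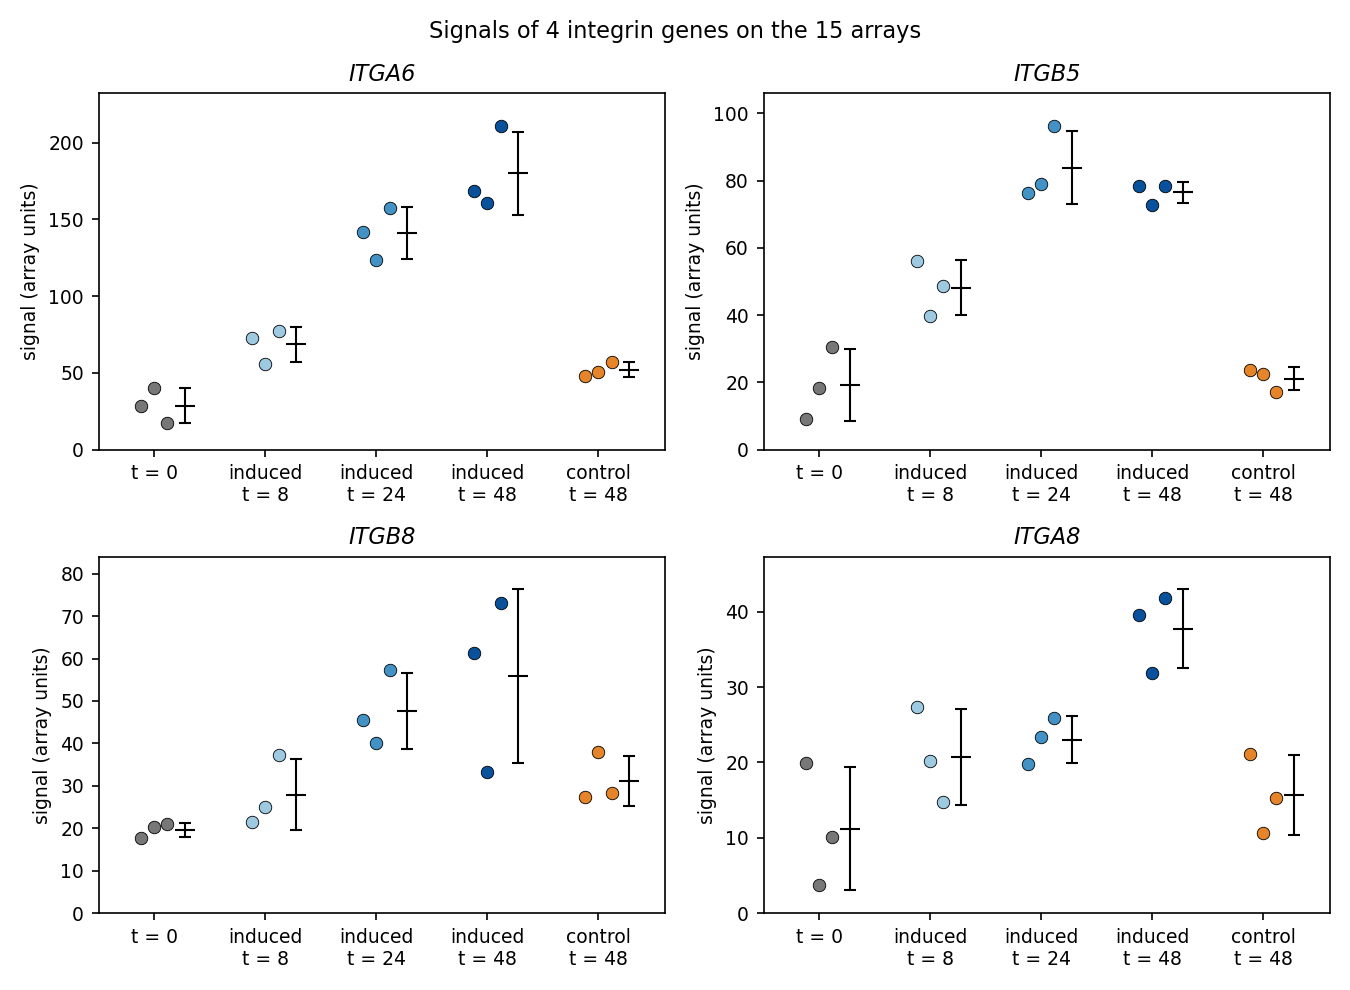
Signal in array units of ITGA6, ITGB5, ITGB8 and ITGA8 on each of the 15 arrays, with 3 points a group and the mean ± SD as a bar beside them. Induced cells at t = 48 read 160.8 or more for ITGA6 and 72.9 or more for ITGB5, above all control arrays, while 1 induced array of ITGB8 lies within the control range.

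LAMB1, the beta chain of many laminins of embryonic tissue, read 612.3, 627.0 and 689.9 in induced and 428.6, 445.4 and 452.0 in control cells at t = 48. The groups did not overlap and the change of 0.53 (SE 0.11, adjusted p = 0.00829) was small beside that of ITGA6. Its dimmer probe set gave 0.41 (adjusted p = 0.0158). LAMB2, which encodes the beta chain found at synapses and in mature basement membranes, read 69.5, 73.9 and 63.3 in induced and 49.7, 33.4 and 45.9 in control cells, a difference of 0.63 (SE 0.16, adjusted p = 0.0261). At t = 0 it had read 62.7, 61.8 and 59.6, above all control arrays, so that its difference at t = 48 held a lower control level (-0.48 against t = 0, adjusted p = 0.23) beside a slightly higher induced level (0.15, adjusted p = 0.532). LAMB2 no longer passed when replicate 1 (adjusted p = 0.0669) or 2 (0.0865) of the induced cells, or control replicate 2 (0.102), was left out.

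Some members missed the threshold with sizeable differences. ITGA8, an alpha subunit that pairs with ITGB1, read 39.6, 31.9 and 41.8 in induced and 21.1, 10.6 and 15.3 in control cells without overlap, for 1.07 (95% confidence interval 0.39 to 1.75, adjusted p = 0.0543). It passed when the fit held only these arrays (adjusted p = 0.0381), with stricter filters (0.0438 and 0.0474), with the mean of its kept probe sets (0.94, adjusted p = 0.00959) and with an offset of 20 (0.70, adjusted p = 0.0198). ITGB8, a further partner of ITGAV, read 61.3, 33.2 and 73.0 against 27.3, 38.0 and 28.3, with overlap through induced replicate 2, for 0.70 (adjusted p = 0.104), and without that array it passed (adjusted p = 0.0144). LAMC1, the gamma chain common to most laminins, gave 0.38 (adjusted p = 0.0846) and passed without control replicate 2 (0.51, adjusted p = 0.0291) or with eBayes trend (adjusted p = 0.039). The dimmer probe set of LAMC1 gave 0.03 (adjusted p = 0.851 over all probe sets). ITGAV read 599.9, 585.0 and 532.8 in induced and 436.0, 518.3 and 457.5 in control cells, for 0.28 (adjusted p = 0.219). LAMA1, a laminin alpha chain, was the tested member with the lowest difference, -0.39 (adjusted p = 0.123), with 75.2 to 96.8 after induction and control arrays at 104.9 to 120.0.

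ITGB1, the shared beta subunit, gave the narrowest interval. It read 2118.0, 1977.4 and 2163.2 in induced and 2148.4, 2139.0 and 2056.6 in control cells. The groups overlapped fully and the log2 fold change of -0.02 had a 95% confidence interval of -0.17 to 0.13. Of its other kept probe sets, 2 gave -0.07 and 0.03 and one near the array median gave 0.90 (adjusted p = 0.317).

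**Figure D2:**
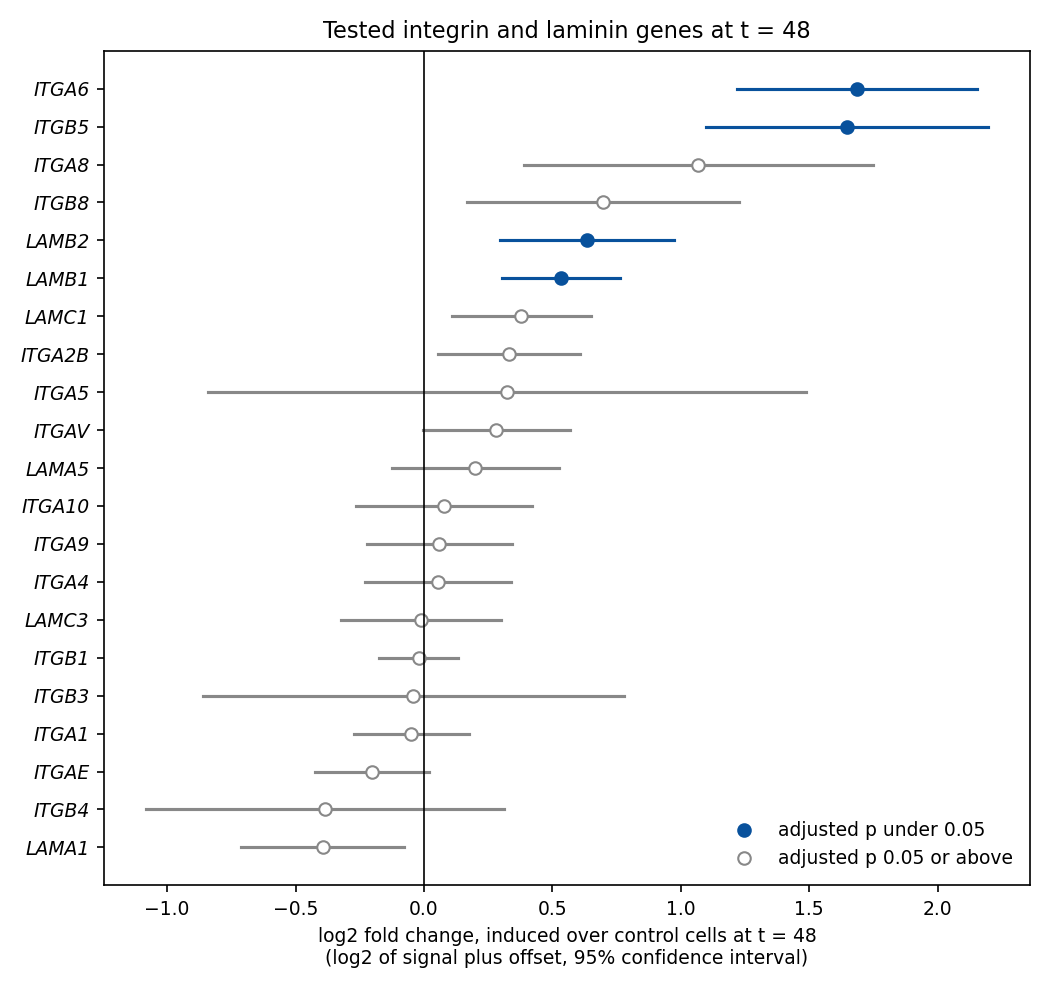
Log2 fold change of induced over control cells at t = 48 for the 21 tested members, with the 95% confidence interval of the limma fit as a line and filled points for an adjusted p under 0.05. ITGA6 (1.69) and ITGB5 (1.65) stand highest, LAMB2 and LAMB1 are the other filled points, and ITGB1 has the narrowest interval.

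The time course asked when these changes appeared. Comparisons with t = 0 share its 3 arrays, and no control cells were measured at t = 8 or t = 24, so that changes with culture time and with induction cannot be told apart there. By t = 8, ITGA6 and ITGB5 had risen and ITGA1 had fallen, 3 of 21 tested members, where 2.1 percent of all genes were called, 1.1 percent higher and 0.995 percent lower. ITGA6 read 73.0, 55.6 and 77.3 (1.18 against t = 0, SE 0.21, adjusted p = 0.0117) and ITGB5 56.0, 39.7 and 48.7 (1.21, SE 0.25, adjusted p = 0.0264), both without overlap with t = 0. The dimmer probe set of ITGA6 gave 0.90 at t = 8 and did not pass (adjusted p = 0.0886 over all probe sets). The other ITGB5 probe sets that reached the filter gave 1.19 and 0.34, and neither passed (adjusted p = 0.309 and 0.913). ITGA1, which encodes the alpha subunit of a collagen receptor, read 98.9, 115.1 and 96.1 against 166.9, 143.0 and 138.1 at t = 0 (-0.51, SE 0.10, adjusted p = 0.0229). It was back at 153.5, 156.4 and 148.1 at t = 24, which was higher than at t = 8 (0.54, adjusted p = 0.00882). Its other probe sets gave -0.37 and -0.21 at t = 8 against t = 0, and neither passed (adjusted p = 0.639 and 0.892 over all probe sets). Without induced t = 8 replicate 1 or 3 none of the 3 calls held (ITGA6 adjusted p = 0.0532 and 0.0563, ITGB5 0.107 and 0.086, ITGA1 0.0915 and 0.0921). That of ITGA1 was also lost without t = 0 replicate 1 (0.103) and that of ITGB5 without t = 0 replicate 2 (0.0743).

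At t = 24, 5 of 21 tested members had risen against t = 0 and 0 had fallen, where 5.96 percent of all genes were called higher and 4.87 percent lower (10.8 percent in all). ITGA6 read 142.0, 123.5 and 157.4 (2.17, SE 0.21, adjusted p = 3.92e-05) and was also higher than at t = 8 (0.99, adjusted p = 0.0188), a call that did not hold when replicate 1 (adjusted p = 0.0621) or 3 (0.0638) of t = 24 or replicate 2 of t = 8 (0.0706) was left out. The dimmer probe set of ITGA6 gave 1.54 against t = 0 (adjusted p = 0.00127 over all probe sets) and 0.64 against t = 8, which did not pass (0.147). ITGB5 read 76.3, 79.1 and 96.3 (1.96, SE 0.25, adjusted p = 0.000308). Its other kept probe sets gave 2.07 (adjusted p = 0.00943 over all probe sets) and 0.91, which did not pass (0.154). ITGB8, whose signals at t = 0 were 17.8, 20.3 and 20.9, read 45.4, 40.1 and 57.4 (1.08, SE 0.24, adjusted p = 0.0141; adjusted p = 0.0554 without induced t = 24 replicate 3). These 3 subunits stood above all arrays at t = 0. LAMB1 read 765.8, 611.5 and 565.6 against 463.5, 417.0 and 455.1 at t = 0 (0.53, adjusted p = 0.00753). It had read 476.1, 509.7 and 440.7 at t = 8, and its rise from there (0.43, adjusted p = 0.033) was lost without any of induced t = 8 replicates 1, 2 and 3 (adjusted p = 0.0859, 0.0501 and 0.0961) or induced t = 24 replicates 1 and 2 (0.0947 and 0.0548). ITGA2B, the alpha subunit of the platelet fibrinogen receptor, read 88.5, 74.5 and 77.5 against 61.8, 56.2 and 49.7 (0.48, adjusted p = 0.0287), a call lost without t = 0 replicates 2 or 3 (adjusted p = 0.0689 and 0.104) or induced t = 24 replicates 1 or 3 (0.106 and 0.0601). A dimmer kept probe set of ITGA2B gave 0.69 at t = 24 (adjusted p = 0.119 over all probe sets). It also gave 0.61 in control cells at t = 48 against t = 0 (0.445), and -0.11 for induced against control cells at t = 48 (0.84). From t = 8 to t = 24, 3 of 21 tested members rose (ITGA1, ITGA6 and LAMB1), where 6.29 percent of all genes were called, 3.46 percent higher and 2.84 percent lower.

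**Figure D3:**
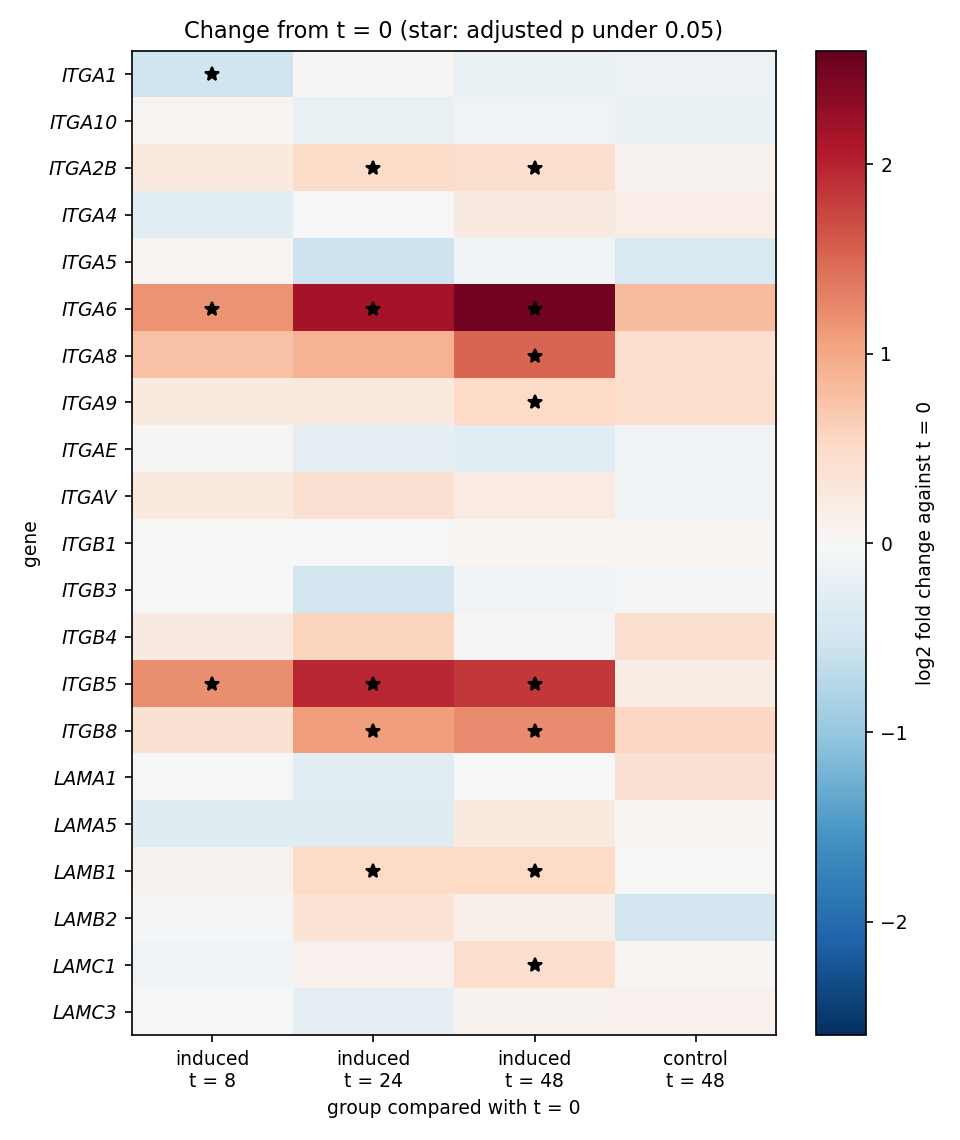
Log2 fold change against t = 0 of the 21 tested members in induced cells at t = 8, 24 and 48 and in control cells at t = 48, with red for higher, blue for lower and a star for an adjusted p under 0.05. ITGA6 and ITGB5 carry a star at each induced time, ITGA1 carries the star among falls, and the control column has 0 stars.

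At t = 48, 8 of 21 tested members were higher than at t = 0 and 0 were lower, where 9.93 percent of all genes were called higher and 8.2 percent lower (18.1 percent in all). ITGA6 reached 2.51 (SE 0.21, adjusted p = 9.4e-06), ITGB5 1.84 (SE 0.25, adjusted p = 0.000409), ITGB8 1.24 (SE 0.24, adjusted p = 0.00441) and LAMB1 0.52 (SE 0.11, adjusted p = 0.00515). The dimmer probe set of ITGA6 gave 2.03 (adjusted p = 0.000123 over all probe sets). The other kept probe sets of ITGB5 gave 1.62 (adjusted p = 0.0227) and 0.96, which did not pass (0.093). ITGA8 rose to the signals given above from 19.9, 3.7 and 10.1 at t = 0 (1.51, SE 0.31, adjusted p = 0.00589), and its second probe set gave 0.72 and did not pass (adjusted p = 0.0932 over all probe sets). Low signals at t = 0 make the size for ITGA8 depend on the offset, with 0.92 at an offset of 20. LAMC1 read 917.7, 820.7 and 1046.7 against 720.0, 705.4 and 627.1 at t = 0 (0.43, SE 0.12, adjusted p = 0.0315), while its dimmer probe set gave 0.10 (adjusted p = 0.481). ITGA2B (0.42, adjusted p = 0.0391) and ITGA9, which encodes a receptor subunit for tenascin and related ligands (0.51, adjusted p = 0.0173), were the other members called.

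Each of these last 3 calls rested on few arrays. That of LAMC1 was lost without induced t = 48 replicates 1 or 3 (adjusted p = 0.0632 and 0.12) or t = 0 replicates 2 or 3 (0.0606 and 0.103), and that of ITGA2B without the same 4 arrays (0.0745, 0.141, 0.0844 and 0.128). The call of ITGA9 was lost without t = 0 replicates 1 or 2 (adjusted p = 0.0602 and 0.0527) or induced t = 48 replicates 1 or 2 (0.0521 and 0.0545). ITGA9 was also not set apart from control cells at t = 48, with 85.2, 83.3 and 73.7 in induced and 65.1, 82.2 and 85.6 in control cells (0.06, 95% confidence interval -0.22 to 0.34), and a dimmer probe set gave -0.12 against t = 0.

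Without doxycycline, 0 of 21 tested members passed between t = 0 and t = 48 in limma, where 0.847 percent of all genes did (0.482 percent higher and 0.365 percent lower). ITGA6 (0.82), ITGB8 (0.54), ITGA9 (0.45) and LAMA1 (0.40) gave differences above 0 and LAMB2 (-0.48) below it, each with an unadjusted p under 0.05. The share of all genes at that unadjusted cut was not counted, so these are not read as changes. From t = 24 to t = 48 in induced cells 0 of 21 passed in limma, where 4.04 percent of all genes did (2.42 percent higher and 1.62 percent lower). LAMA5, the alpha chain of the most widespread adult laminins, came nearest to passing. Its signals were 95.1, 99.7 and 77.0 at t = 0, 70.3, 82.9 and 62.5 at t = 8, 60.7, 77.4 and 75.8 at t = 24 and 110.1, 116.6 and 98.8 at t = 48 in induced cells, and 76.6, 110.1 and 97.1 in control cells. The means at t = 8 and t = 24 were the lowest, with overlap with t = 0 and control arrays but not with induced t = 48, and the step from t = 24 to t = 48 of 0.58 narrowly missed (adjusted p = 0.052). By the moderated F-test over the induced time course 8 of 21 tested members changed, where 20.2 percent of all genes did: ITGA1, ITGA6, ITGA8, ITGB5, ITGB8, LAMA5 (adjusted p = 0.0342), LAMB1 and LAMC1.

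**Figure D4:**
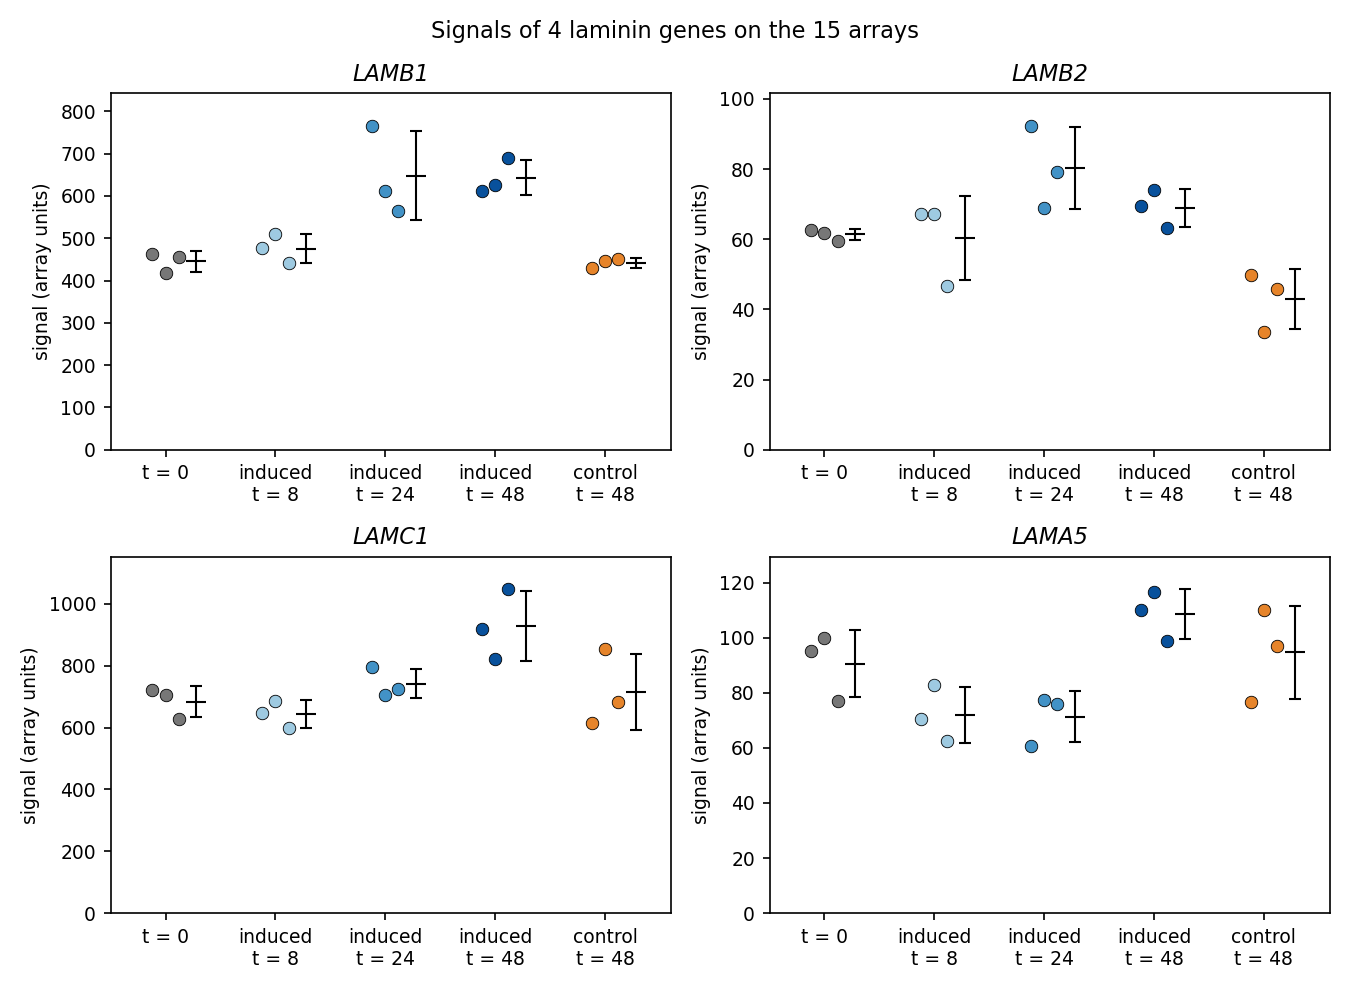
Signal in array units of LAMB1, LAMB2, LAMC1 and LAMA5 on each of the 15 arrays, with 3 points a group and the mean ± SD as a bar beside them. LAMB1 in induced cells lies above t = 0 and control from t = 24 on, with 565.6 as its lowest array there, LAMB2 is on average lowest in control cells, and LAMA5 on average lower at t = 8 and t = 24 than in the other groups.

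The other 10 tested members passed no comparison and no F-test. ITGAE, a leukocyte integrin gene by name, read 699.3 to 1017.2, with its largest difference at t = 48 against t = 0 (-0.28, adjusted p = 0.079), which passed with arrays centred on the median (-0.34, adjusted p = 0.0338). ITGAV read 436.0 to 661.3, with 0.40 at t = 24 against t = 0 (adjusted p = 0.0714; 0.50, adjusted p = 0.0457 without t = 0 replicate 1). ITGA4, a receptor subunit for fibronectin, read 163.8 to 282.9 and gave -0.29 at t = 8 (adjusted p = 0.493). ITGB1 lay between 1899.5 and 2163.2 over all 15 arrays. LAMA1 ran from 54.7 to 120.0 and LAMC3 from 45.3 to 78.1. ITGA10, ITGA5, ITGB3 and ITGB4 stayed at or under 38.6, too near the array median for small changes to be seen.

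By class, the members that passed in at least 1 comparison were 10 of 21, where 24.1 percent of all genes passed in at least 1. They were 1 of 2 tested laminin-binding integrins (ITGA6), 1 of 2 collagen-binding integrins (ITGA1), 4 of 7 binders of the arginine-glycine-aspartate motif (ITGA2B, ITGA8, ITGB5 and ITGB8), ITGA9 beside ITGA4, both beta chains and 1 of 2 gamma chains of laminin. The laminin alpha chains LAMA1 and LAMA5 passed in 0 comparisons. The genes most like ITGA6 over the 15 arrays, by Pearson correlation of log2 values among 12867 genes, were FOXO3 (0.96), RNF182 (0.96), BCL6 (0.95), SVIL (0.95) and MATN2 (0.95), which share with it the arrays and their scaling.

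Other genes of the adhesion pathway were counted from lists of partners. Of 34 tested adaptors and kinases that link integrins to actin, 2 were higher and 0 lower at t = 48 against control, or 5.88 percent against 8.6 percent of all genes. They were DST, a cytoskeletal linker of the plakin family (0.67, adjusted p = 0.000824), and ACTN1, an actin-crosslinking alpha-actinin (0.40, adjusted p = 0.029). ACTN1 was also higher at t = 8 (0.71, adjusted p = 0.0024) and t = 24 (0.93) against t = 0, and so was NEDD9, a docking protein of focal adhesions (0.59, adjusted p = 0.00164, and 0.87). These were the 2 of 34 called at t = 8, or 5.88 percent against 2.1 percent. At t = 24 ZYX, a focal adhesion protein gene (0.45, adjusted p = 0.0314), was the other one of 3 called of 34, or 8.82 percent against 10.8 percent of all genes. At t = 48 against t = 0, 4 of the 34 were higher (DST, ACTN1, TNS3 and FYN) and 2 lower (FERMT2 and TGFB1I1), or 17.6 percent against 18.1 percent. From t = 24 to t = 48, 2 were higher (DST and TNS3) and 3 lower (NEDD9, ZYX and FERMT2), or 14.7 percent against 4.04 percent.

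Of 17 tested integrin ligands, of the matrix or of the cell surface, 5 were higher and 0 lower at t = 48 against control. This was 29.4 percent against 8.6 percent of all genes, with a list median of 0.26. COL1A1, COL1A2 and COL3A1 of this list were also among the fibroblast markers. COL6A3 (3.35, adjusted p = 0.000174), COL3A1 (1.06, adjusted p = 0.0101), FN1 (0.97, adjusted p = 0.000503) and COL6A1 (0.84, adjusted p = 0.00081), genes of collagens and of fibronectin, led them, and L1CAM, a neural adhesion molecule (0.53, adjusted p = 0.0355), was the fifth. COL6A3 read 84.6 in induced and 4.17 in control cells on average, so its fold depends on the offset. Of 14 tested basement membrane partners and other laminin receptors, FRAS1 (116.4 against 55.7 on average, adjusted p = 0.000715), which encodes a matrix protein of embryonic basement membranes, and NTN4, a laminin-related netrin (1.03, adjusted p = 0.0202), were higher and 0 were lower (14.3 percent called), while the list median was -0.14. Of 16 tested tetraspanins and membrane partners, 3 were lower and 0 higher (18.8 percent called): CD9, a tetraspanin (-1.18, adjusted p = 2.5e-05), PLAUR, the urokinase receptor gene (-0.53, adjusted p = 0.02), and SLC3A2, the heavy chain of amino acid transporters that binds integrin beta subunits (-0.30, adjusted p = 0.0393). At t = 24 against t = 0, CD9 was higher (0.83, adjusted p = 0.000331) and SLC3A2 (-0.45, adjusted p = 0.00339) and CD63, a further tetraspanin gene (-0.38, adjusted p = 0.0298), were lower. At t = 48 against control without the pair of weak arrays, 789 of 12868 genes were called, 487 higher and 302 lower. There, 1 of the adaptors and kinases and 4 of the integrin ligands were higher. In the same comparison 1 basement membrane partner was higher and 1 lower, and 2 membrane partners were lower.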

How the data were processed

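The deposited table of 54675 probe sets on 15 arrays holds signal intensities on a linear scale, which the authors computed by MAS5 (GCOS is also named), per the submitters' processing notes. Version, settings and genome build are not given in the sources used here. The 2 percent trimmed mean was 100.01 on every array. The number of arrays limits the precision.

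The platform annotation gave 1 symbol for 41091 probe sets and several for 1801, and 41037 of the former were found by Entrez identifier in the RefSeq table of GRCh38.p14. The probe set with the highest mean signal stood for each gene, and genes were tested where it reached the array median on at least 3 of 15 arrays. An offset of 5.16, the mean lower quartile, was added before log2. Group means of all 15 arrays were fitted with limma 3.58.1 in R 4.3.3 (lmFit, eBayes, two-sided) for 7 comparisons and an F-test, with Benjamini-Hochberg adjustment over 12868 genes. On simulated data for induced against control cells at t = 48 (12868 genes, 200 changed), 74 percent of 2-fold and 34 percent of 1.41-fold changes were called and 0.917 percent of calls were false, so a gene that did not pass may have changed. The simulated noise was independent between genes, and the data themselves called 1107 genes in this comparison. These shares therefore describe the simulated data and need not hold for these arrays.

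The members and lists were chosen with earlier results of these data known, and no list was tested as a set. The rule for named genes took every member, array by array where called at t = 48 against control or changed at least 2-fold, MSX1, the 4 largest called changes of each pathway list at t = 48 against control, and the 5 genes most like the member that changed most. Genes of the lists called at other times, and members that narrowly missed, were named after their values were seen. Promoters came from RefSeq. No array was identical to another. Figures were drawn with matplotlib 3.10.9. Alternatives covered the offset, scaling, filter, probe set, variance model, arrays fitted, replicate number, threshold and leaving out arrays.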

Additional observations from a re-analysis of the deposited data

Results flagged for a closer look

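ITGA6, ITGB5, LAMB1 and LAMB2 were noted because their change from t = 0 to t = 48 differed between induced and control cells in limma. For ITGA6 the induced change was 2.51 and the control change 0.82, a difference of 1.69 (adjusted p = 0.00038). For ITGB5 they were 1.84 and 0.20, a difference of 1.65 (adjusted p = 0.00144). For LAMB1 they were 0.52 and -0.01, a difference of 0.53 (adjusted p = 0.00829). For LAMB2 they were 0.15 and -0.48, a difference of 0.63 (adjusted p = 0.0261), and neither of its changes passed alone. These are the differences between induced and control cells at t = 48 given above, not further tests. Groups of 3 arrays were too small for a test of outlying arrays.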

How the results depend on the processing

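The 23 calls of single members kept their direction under each of 460 alternatives and lost the threshold in 82. At t = 48 against control, ITGA6 (1.46 to 1.76), ITGB5 (1.23 to 1.82) and LAMB1 (0.47 to 0.57) passed under each alternative run. Leaving out 1 array in turn gave 3 to 5 members called at t = 48 against control, 0 to 3 at t = 8, 3 to 7 at t = 24 and 5 to 9 at t = 48 against t = 0, 0 to 1 for control cells, 1 to 4 from t = 8 to t = 24, 0 to 1 from t = 24 to t = 48 and 5 to 10 in the F-test. Calls over all genes then ran from 650 to 1239 at t = 48 against control and 173 to 265 at t = 8. They ran from 896 to 1441 at t = 24, 1508 to 2586 at t = 48 against t = 0 and 33 to 116 for control cells. From t = 8 to t = 24 they ran from 398 to 831, and from t = 24 to t = 48 from 358 to 536. In the F-test they ran from 1932 to 2513. At t = 8, where 3 members were called, 1 was without a filter, 1 with the mean of all kept probe sets, 0 with only the compared groups and 0 at an adjusted p of 0.01. At t = 24, 3 in place of 5 were called with only the compared groups or at 0.01. At t = 48 against t = 0, 5 in place of 8 were called with the mean of all kept probe sets, with only the compared groups or at 0.01. From t = 8 to t = 24, 0 in place of 3 were called with only the compared groups, 1 at 0.01 and 1 without the arrays whose hybridisation controls were weak, an alternative chosen after seeing the data. The F-test called 5 in place of 8 at 0.01 and without that pair. With only the compared groups, calls over all genes fell from 270 to 52 at t = 8 and 1394 to 474 at t = 24. They fell from 2333 to 1124 at t = 48 against t = 0 and 810 to 90 from t = 8 to t = 24. At 0.01 they were 131, 599, 1029 and 269 in the same order, and 1259 in place of 2596 in the F-test. The mean of kept probe sets gave 248 at t = 8 and 2106 at t = 48 against t = 0, and no filter 181 at t = 8. Without the pair they were 490 from t = 8 to t = 24 and 1850 in the F-test. From t = 24 to t = 48, 1 in place of 0 (LAMA5) was called with an offset of 20, with arrays centred on the median, with quantile normalization, with the filters on 6 arrays and on the mean, with eBayes trend and with the replicate block. The cause of these changes in count was not tested. With arrays centred on the median, calls over all genes were 542 higher and 621 lower at t = 48 against control in place of 683 and 424, 603 and 1031 in place of 767 and 627 at t = 24, 1028 and 1620 in place of 1278 and 1055 at t = 48 against t = 0, and 340 and 686 in place of 445 and 365 from t = 8 to t = 24. Replicate numbers did not pair the arrays: same-numbered arrays deviated together with r from -0.28 to 0.12 and in 0 of 7 comparisons were all over 0.1. The replicate block is therefore given only here; beside the call of LAMA5 it added ITGA8 at t = 48 against control (adjusted p = 0.0383) and lost ITGA2B and LAMC1 at t = 48 against t = 0 (0.0592 and 0.0526), LAMC1 in the F-test and LAMB1 from t = 8 to t = 24 (0.0574).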

Other observations

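The dimmer probe sets of ITGA4 gave larger falls at t = 8 against t = 0 than the brightest did (-0.56, -0.55 and -0.54 against -0.29), and none of the 4 passed over all probe sets (lowest adjusted p = 0.0813). For ITGB3, a second probe set gave -1.05 at t = 48 against t = 0 (adjusted p = 0.061) where the brightest gave -0.10. Control cells at t = 48 stood between t = 0 and induced cells for ITGA6 and ITGB8 on average, with 52.2 and 31.2, against 28.6 and 19.7 at t = 0 and 180.1 and 55.8 in induced cells.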
